A study of Mus musculus with 4 samples.

Results

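The transcripts described here are those of 40 mouse genes for amino acid synthesis, amino acid transport and the stress response governed by the transcription factor ATF4. They were chosen by name with earlier results of these data known, so member counts set beside all genes only describe this list. Of the 40, 39 had a probe set among the 19938 genes measured, and Pycr1 had none. Expression was measured on 4 Affymetrix whole-transcript arrays of RNA from colony-forming cells, with 1 array per group. The groups were LT-HSC CreER, LT-HSC mock, ST-HSC CreER and ST-HSC mock: colonies grown from long-term (LT-HSC) or short-term (ST-HSC) haematopoietic stem cells of C57BL/6 background, and transduced either with CreER, a form of Cre recombinase that oestrogen-receptor ligands switch on, or mock. The series concerns stem cells that conditionally express the leukaemia fusion MLL-ENL. The labels do not say which groups carry or express the fusion, whether CreER was activated, or the age and number of animals. All 4 groups grew in methylcellulose with SCF, GM-CSF and also IL-3 and IL-6, so the RNA is that of the colonies and not of the sorted stem cells. Values are log2 expression levels, and a difference of 1 is 2-fold. A level was counted as above the signal floor if it exceeded the median of all single-symbol probe sets on its array, which lay between 8.07 and 8.13.

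Cells short of an amino acid, or under other stresses, phosphorylate the initiation factor eIF2alpha, which slows most translation but favours that of ATF4. ATF4 then binds C/EBP-ATF response elements and switches on genes that make, import and charge amino acids, together with factors such as CHOP and TRIB3 that restrain it or end in cell death if it persists. Proliferating blood progenitors use the same enzymes to supply serine, glycine, asparagine and folate-bound carbon units for protein and nucleotide synthesis.

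Short stretches of the members' promoters are shown first, because many of these genes are known targets of ATF4 through this element. RefSeq promoter windows of build GRCm38.p6, from 250 bases before to 50 bases after a start site, were given for 32 of the 40 genes. The 8-letter core of the element, TGATGNAA, read on both strands, occurred in the windows of 9 of these 32 genes, which is 28.1%, against 4.51% of all 27025 genes in the table. Since the list includes known targets through this element, the contrast is no independent result. The AP-1-like core TGANTCA, which reads the same on both strands, occurred in 3 of the 32, Bcat1, Ddit3 and Slc7a1, which is 9.38%, against 8.97% of all genes, and no member held both. The 9 genes were Asns, Chac1, Got1, Nupr1, Pycr1, Slc1a4, Slc7a11, Trib3 and Vldlr. The stretches below are written 5′ to 3′ on the strand of the gene, with the core in capitals, and are those of members whose levels are described next; a core on the opposite strand appears as TTGCATCA or TTACATCA.
Trib3 (chr2:152344028-152344057, minus strand): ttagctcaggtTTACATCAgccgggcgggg
Chac1 (chr2:119351038-119351067, plus strand): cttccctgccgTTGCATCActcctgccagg
Slc1a4 (chr11:20332699-20332728, minus strand): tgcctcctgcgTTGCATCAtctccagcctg
Nupr1 (chr7:126625562-126625591, minus strand): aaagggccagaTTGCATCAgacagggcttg
Asns (chr6:7693214-7693243, minus strand): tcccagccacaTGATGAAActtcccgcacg
Slc7a11 (chr3:50443642-50443690, minus strand): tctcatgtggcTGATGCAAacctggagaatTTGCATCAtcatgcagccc
Got1 (chr19:43524689-43524718, minus strand): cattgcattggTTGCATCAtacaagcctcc
Slc7a11 carried 2 cores, one on each strand. The core of Trib3 lay after its start site, beginning at base 15, and that of Asns lay 23 bases before its start. The 250 bases upstream of Chac1 and Asns are given whole, since both are classical ATF4 targets.
Chac1 (chr2:119350992-119351241, plus strand): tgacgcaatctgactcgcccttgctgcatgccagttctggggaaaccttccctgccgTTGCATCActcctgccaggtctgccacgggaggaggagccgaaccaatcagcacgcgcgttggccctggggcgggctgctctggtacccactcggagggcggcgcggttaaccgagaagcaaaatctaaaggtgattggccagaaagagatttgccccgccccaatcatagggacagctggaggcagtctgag
Asns (chr6:7693210-7693459, minus strand): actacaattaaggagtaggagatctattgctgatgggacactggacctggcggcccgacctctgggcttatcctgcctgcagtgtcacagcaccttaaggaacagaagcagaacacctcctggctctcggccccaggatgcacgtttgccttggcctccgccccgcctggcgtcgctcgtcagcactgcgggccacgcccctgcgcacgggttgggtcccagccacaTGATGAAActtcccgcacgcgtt
A match is a description of these letters and not a binding site. Across members with a window and a probe set, the difference LT-HSC mock minus ST-HSC mock had a median of 0.999 (range 0.49 to 2.53) in the 8 with the core and of 0.75 (range -0.16 to 3.60) in the 23 without it.

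Colonies grown from LT-HSC carried more of most of these transcripts than colonies grown from ST-HSC, with either transduction. Both LT-HSC arrays lay above both ST-HSC arrays for 34 of the 39 measured members, and for none did both lie below, whereas, of the 10411 genes that passed the floor somewhere, 24.6% lay above and 30.2% below. Of all 19938 genes measured, 4721 lay above and 4195 below. Among the 34 were Aldh1l2 and Vldlr, under the floor on every array. Cth, Slc7a3, Slc1a4 and Stc2, also among them, passed the floor only through the LT-HSC arrays. The median difference over the 39 members was 0.74 between LT-HSC CreER and ST-HSC CreER and 0.90 between LT-HSC mock and ST-HSC mock, against 0.04 and -0.03 over all genes. The highest level stood on the LT-HSC mock array for 32 members and on the LT-HSC CreER array for the other 7; 28.6% and 20.8% of genes past the floor were highest on these arrays. No member was highest on ST-HSC CreER or ST-HSC mock, against 23.4% and 27.2% of genes. The exceptions to the order of the populations were Shmt1, Bcat2, Got2, Gclm and Cbs, whose population ranges overlapped.

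**Figure D1:**
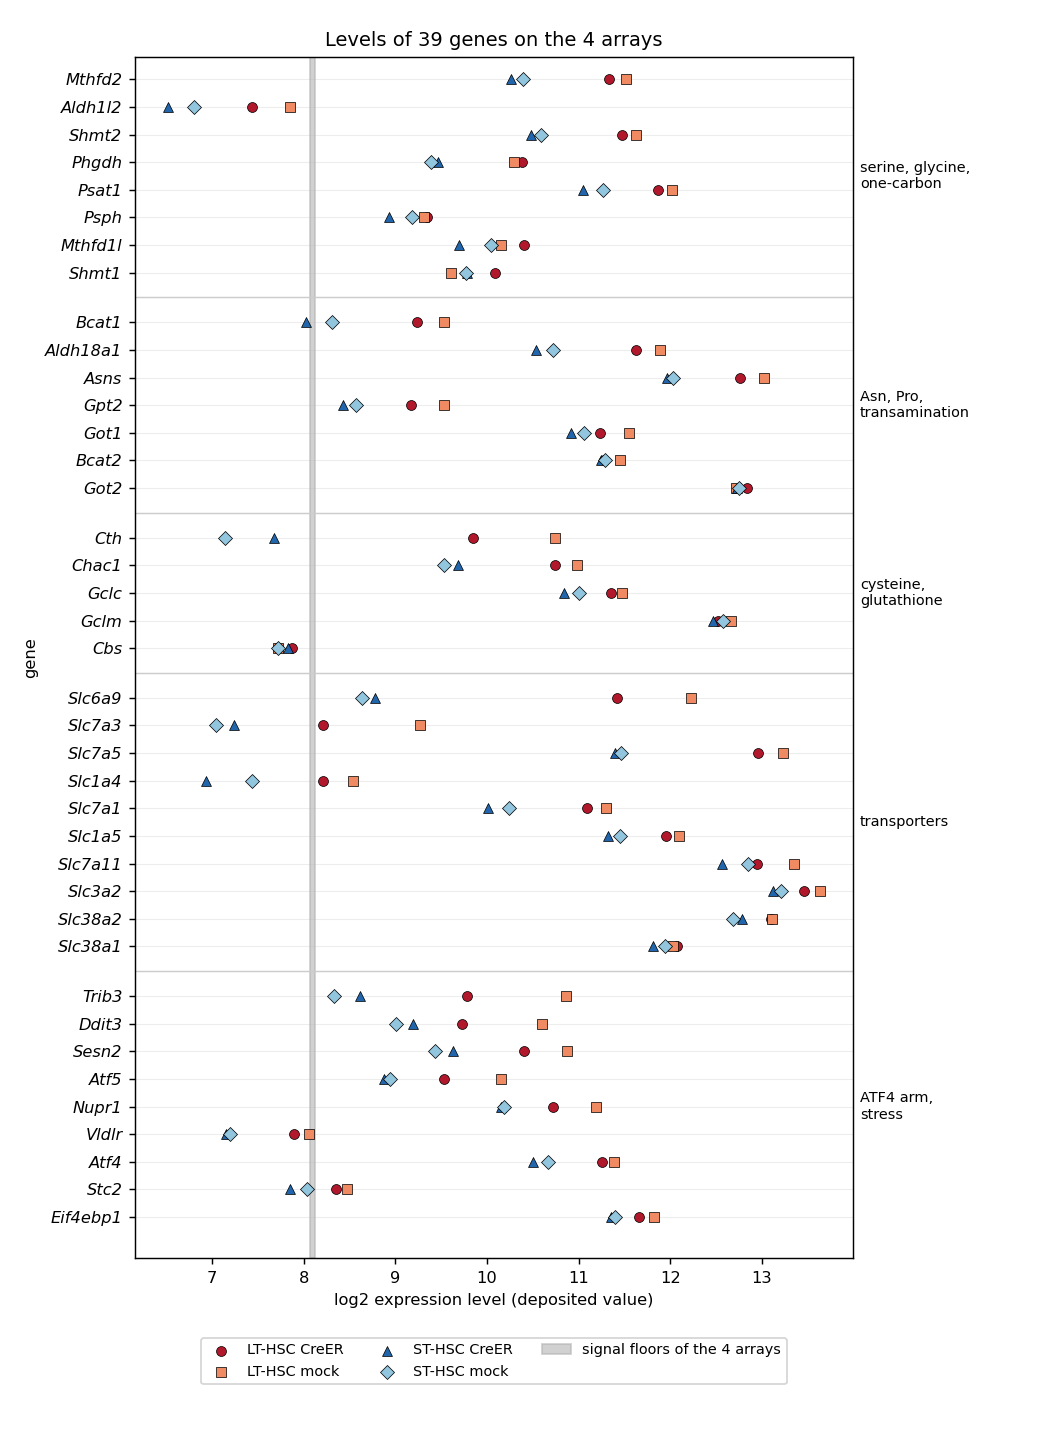
Log2 expression level (x axis) of the 39 measured genes (y axis, grouped by role and sorted by their difference with mock), with 1 point for each of the 4 arrays and the signal floors as a grey band. For 34 genes both LT-HSC points (red and orange) lie to the right of both ST-HSC points (blue).

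The population effect was tested with limma in an additive model of population and transduction over all 10411 genes past the floor, with Benjamini-Hochberg adjustment over all of them. At an adjusted p under 0.05, 22 of the 36 members tested were higher in LT-HSC colonies and 0 were lower, against 3.78% of all genes higher and 2.49% lower. Because earlier results of these data were known when the members were chosen, this contrast is no independent test of the list. The member count was 16 with cyclic loess normalization and 13 with the floor at the 75th percentile. Since 4 members, Cth, Slc7a3, Slc1a4 and Stc2, passed the floor only through the LT-HSC arrays, the count is also given for the 31 members above the floor on all 4 arrays, of which 18 were higher, against 2.56% of the 9350 such genes. At an unadjusted p under 0.05 the count was 30 higher, against 11.6% of all genes higher and 14.1% lower. The fit removes the average CreER difference, so its 1 residual degree of freedom is how far that difference departs between the populations. This residual is drawn towards a spread shared by all genes, with 4.27 prior degrees of freedom. The p-values rest on that departure and the shared spread, both between these arrays, and may be technical. The labels name no separate animals, so the spread between animals cannot be judged.

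Transcripts of basophils and mast cells moved in the same direction. Of 15 measured markers of these cells, 12 lay above both ST-HSC arrays on both LT-HSC arrays, against 24.6% of genes past the floor. Of the 12 tested in limma, 8 were higher, among them Gata2, Hdc and Mcpt8, against 3.78% of all genes. Cpa3, Fcer1a and Kit did not pass (limma adjusted p = 0.0716, 0.13 and 0.0903). The log2 of their summed signal was 15.29 on LT-HSC CreER and 15.57 on LT-HSC mock, against 13.92 on ST-HSC CreER and 13.39 on ST-HSC mock, and 4 of the 6 markers above the floor on all 4 arrays were called. Of the connective tissue mast cell proteases, Mcpt4, Cma1 and Tpsab1 stayed under the floor on all arrays. Tpsb2 stood at 8.36 and 8.73 on LT-HSC CreER and mock, against 8.04 and 7.69, both under the floor, on ST-HSC CreER and mock (limma adjusted p = 0.0936). Of 5 megakaryocyte and platelet markers, 4 were also higher in LT-HSC colonies, as was 1 of 4 eosinophil markers tested. The erythroid markers Klf1, Car1 and Gata1 passed the floor only through the LT-HSC arrays, and the other 2 measured, Epor and Alas2, were under it on all 4 arrays. The 11 cell cycle markers gave 0 calls in either direction. Their median difference, LT-HSC minus ST-HSC, was 0.11 with CreER, where 10 were higher and 1 was lower. With mock it was -0.22, and all 11 were lower. The part of these cell types in the differences below was not tested, and in bulk RNA more cells of a type and more RNA per cell cannot be told apart. All 11 neutrophil markers were above the floor on every array, and 0 were called in limma. Their median difference, LT-HSC minus ST-HSC, was -0.27 with CreER, where all 11 were lower. With mock it was -0.14, with 8 lower and 3 higher.

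Among regulators of the ATF4 arm, all 9 genes were higher on both LT-HSC arrays, against 24.6% of genes past the floor. In limma 5 of the 8 tested passed, against 3.78% of all genes tested that were higher. Atf4 itself stood at 11.25 on LT-HSC CreER and 11.39 on LT-HSC mock, against 10.50 on ST-HSC CreER and 10.66 on ST-HSC mock. The populations did not overlap, and the effect was 0.74 ± 0.09 (SE; limma adjusted p = 0.0182). Trib3, which encodes a pseudokinase that damps ATF4 signalling, stood at 9.78 and 10.86 on LT-HSC CreER and mock, against 8.61 and 8.33 on ST-HSC CreER and mock. Its effect of 1.85 ± 0.31 (limma adjusted p = 0.0371) was the largest of this group, and the LT-HSC arrays were themselves more than 2-fold apart. Sesn2, a leucine sensor that restrains mTORC1, stood at 10.40 and 10.87 on LT-HSC CreER and mock, against 9.63 and 9.43 on ST-HSC CreER and mock, an effect of 1.11 ± 0.17 (limma adjusted p = 0.0305). Both Sesn2 and Trib3 were more than 2-fold higher in LT-HSC colonies with mock.

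Atf5, a relative of Atf4 that is translated under the same control, stood at 9.53 and 10.15 on LT-HSC CreER and mock, against 8.88 and 8.94 on ST-HSC CreER and mock (effect 0.93 ± 0.15, limma adjusted p = 0.0349). Nupr1, a small stress-induced nuclear protein gene, stood at 10.72 and 11.19 on LT-HSC CreER and mock, against 10.15 and 10.19 on ST-HSC CreER and mock (effect 0.79 ± 0.13, limma adjusted p = 0.0378). For these genes the ST-HSC arrays were close together and the LT-HSC mock array was the highest. With cyclic loess normalization the adjusted p of Trib3, Sesn2, Atf5 and Nupr1 was 0.0679, 0.0542, 0.0603 and 0.0594, and with the floor at the 75th percentile it was 0.0703, 0.0607, 0.0633 and 0.0654, so these calls ended in limma, while that of Atf4 stayed under 0.05. Ddit3, which encodes the pro-apoptotic factor CHOP, stood at 9.73 and 10.60 on LT-HSC CreER and mock, against 9.20 and 9.01 on ST-HSC CreER and mock. Its effect of 1.06 ± 0.25 did not pass (limma adjusted p = 0.0746), with LT-HSC arrays 0.87 apart. The translation repressor gene Eif4ebp1 (0.37 ± 0.10) and the secreted glycoprotein gene Stc2 (0.47 ± 0.09) had limma adjusted p of 0.0901 and 0.0521, and the lipoprotein receptor gene Vldlr was under the floor on every array.

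Of the 10 amino acid transporters, 6 were higher in LT-HSC colonies in limma, against 3.78% of all genes tested. Slc6a9, the plasma membrane glycine transporter, stood at 11.41 on LT-HSC CreER and 12.23 on LT-HSC mock, against 8.77 on ST-HSC CreER and 8.63 on ST-HSC mock. The LT-HSC colonies were 6.23-fold higher with CreER and 12.1-fold higher with mock, and the effect was 3.12 ± 0.23 (limma adjusted p = 0.00584). Slc7a5, the light chain of the transporter for leucine and other large neutral amino acids, stood at 12.96 and 13.23 on LT-HSC CreER and mock, against 11.40 and 11.47 on ST-HSC CreER and mock. Its effect of 1.66 ± 0.10 had the smallest adjusted p of all members, 0.00421 in limma, and arrays of 1 population lay within 0.27 of each other. Its heavy chain Slc3a2, shared with Slc7a11 and other light chains, differed less, at 13.46 and 13.63 on LT-HSC CreER and mock, against 13.12 and 13.21 on ST-HSC CreER and mock (effect 0.39 ± 0.09, limma adjusted p = 0.0793).

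The cationic amino acid transporter Slc7a1, which imports arginine and lysine, stood at 11.10 and 11.30 on LT-HSC CreER and mock, against 10.01 and 10.24 on ST-HSC CreER and mock (effect 1.07 ± 0.09, limma adjusted p = 0.00785). A second transporter of this class, Slc7a3, stood at 8.21 and 9.27 on LT-HSC CreER and mock and under the floor on both ST-HSC arrays, at 7.24 with CreER and 7.05 with mock. Its effect was 1.60 ± 0.29 (limma adjusted p = 0.0437), of uncertain size because of the floor, and the adjusted p was 0.0593 after quantile and 0.0815 after cyclic loess normalization. Slc1a4, a carrier of alanine, serine and cysteine, stood at 8.21 and 8.54 on LT-HSC CreER and mock, against 6.93 and 7.43 on ST-HSC CreER and mock. Both ST-HSC levels were under the floor, so its effect of 1.19 ± 0.10 (limma adjusted p = 0.00761) is of uncertain size too. The glutamine carrier Slc1a5 also passed, with 0.64 ± 0.09 (limma adjusted p = 0.0254).

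Slc7a11, which imports cystine in exchange for glutamate, stood at 12.94 and 13.35 on LT-HSC CreER and mock, against 12.56 and 12.85 on ST-HSC CreER and mock. LT-HSC CreER and ST-HSC mock were thus only narrowly apart, and the effect of 0.44 ± 0.10 did not pass (limma adjusted p = 0.0643). The sodium-coupled neutral carriers Slc38a2 (0.37 ± 0.10) and Slc38a1 (0.17 ± 0.10) had limma adjusted p of 0.0889 and 0.356. All 10 transporters were higher on both LT-HSC arrays, against 24.6% of genes past the floor.

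Of the serine, glycine and one-carbon enzymes, 4 of 7 tested were higher in LT-HSC colonies, against 3.78% of all genes tested. Mthfd2, the mitochondrial folate dehydrogenase, stood at 11.33 and 11.51 on LT-HSC CreER and mock, against 10.27 and 10.39 on ST-HSC CreER and mock (effect 1.09 ± 0.09, limma adjusted p = 0.00761). Shmt2, the mitochondrial enzyme that splits serine into glycine and a folate-bound carbon, stood at 11.48 and 11.63 on LT-HSC CreER and mock, against 10.48 and 10.59 on ST-HSC CreER and mock (effect 1.02 ± 0.09, limma adjusted p = 0.00899). Its cytosolic counterpart Shmt1 stood at 10.09 and 9.61 on LT-HSC CreER and mock, against 9.78 and 9.77 on ST-HSC CreER and mock, so the populations overlapped and the effect was 0.07 ± 0.14 (limma adjusted p = 0.784). Of the enzymes that make serine from a glycolytic intermediate, Phgdh (0.91 ± 0.09) and Psat1 (0.79 ± 0.09) passed, with limma adjusted p of 0.0114 and 0.0173. The last enzyme of that route, Psph, had an effect of 0.27 ± 0.11 and did not pass (limma adjusted p = 0.199). The mitochondrial formate-producing enzyme gene Mthfd1l did not pass either (0.41 ± 0.16, limma adjusted p = 0.192), and Aldh1l2, a mitochondrial folate enzyme, was under the floor on every array at 7.44 and 7.85 on LT-HSC CreER and mock, against 6.52 and 6.80 on ST-HSC CreER and mock.

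Of the enzymes of asparagine, proline and transamination, 4 of 7 tested were higher, against 3.78% of all genes tested. Asns, which makes asparagine from aspartate and glutamine, stood at 12.76 and 13.02 on LT-HSC CreER and mock, against 11.96 and 12.03 on ST-HSC CreER and mock (effect 0.90 ± 0.10, limma adjusted p = 0.0144). Aldh18a1, which starts proline synthesis from glutamate, stood at 11.62 and 11.89 on LT-HSC CreER and mock, against 10.53 and 10.72 on ST-HSC CreER and mock (effect 1.13 ± 0.09, limma adjusted p = 0.00761). Bcat1, the cytosolic aminotransferase of branched-chain amino acids, stood at 9.23 and 9.53 on LT-HSC CreER and mock, against 8.03 on ST-HSC CreER, under the floor, and 8.30 on ST-HSC mock (effect 1.22 ± 0.09, limma adjusted p = 0.00606). For all these genes the gap between populations exceeded every gap within one. The mitochondrial counterpart of Bcat1, Bcat2, did not pass, with 0.09 ± 0.10 (limma adjusted p = 0.592). The glutamate-pyruvate transaminase gene Gpt2 passed (0.85 ± 0.10, limma adjusted p = 0.0179). The aspartate aminotransferase genes Got1 (0.40 ± 0.10) and Got2 (0.04 ± 0.10) did not, with limma adjusted p of 0.081 and 0.848; both probe sets of Got2 differed between LT-HSC mock and ST-HSC mock by -0.03.

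Of the cysteine and glutathione enzymes, 3 of 4 tested were higher, against 3.78% of all genes tested. Cth, which releases cysteine from cystathionine, stood at 9.85 on LT-HSC CreER and 10.75 on LT-HSC mock, and under the floor on ST-HSC CreER (7.68) and ST-HSC mock (7.15). The effect was 2.88 ± 0.32 (limma adjusted p = 0.0146), of uncertain size because of the floor. Cbs, the enzyme before it in the same pathway, was under the floor on every array. Chac1, a glutathione-degrading enzyme, stood at 10.74 and 10.98 on LT-HSC CreER and mock, against 9.69 and 9.53 on ST-HSC CreER and mock (effect 1.26 ± 0.13, limma adjusted p = 0.0114). The catalytic subunit gene of glutamate-cysteine ligase, Gclc, passed narrowly (0.49 ± 0.09, limma adjusted p = 0.0476), and the modifier subunit gene Gclm did not (0.07 ± 0.09, limma adjusted p = 0.68).

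By size alone, 16 of the 39 members were at least 2-fold higher on LT-HSC mock than on ST-HSC mock with the higher array above the floor, against 2.72% of 10208 genes. With CreER, 10 members were at least 2-fold higher, against 1.39% of 10189 genes, and all 10 were among the 16. Without Cth, Slc7a3, Slc1a4 and Bcat1, which were under the floor on at least 1 ST-HSC array, 12 of the 31 members above the floor on all 4 arrays were 2-fold higher with mock and 7 with CreER. Of all 9350 such genes, 1.58% were 2-fold higher with mock and 0.759% with CreER. The 6 that were 2-fold higher with mock and not with CreER were Shmt2, Slc7a3, Atf5, Ddit3, Nupr1 and Sesn2; with CreER, Shmt2 was just under 2-fold and Slc7a3 was 1.97-fold higher. No member was at least 2-fold lower in either pair, against 0.55% of genes with CreER and 0.402% with mock. The gap between populations was wider with mock for 26 members and wider with CreER for 13. It was 1.06 for Chac1 with CreER against 1.45 with mock, and 1.17 against 2.53 for Trib3. The difference between these gaps is itself the residual of the additive model, so it was not tested.

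**Figure D2:**
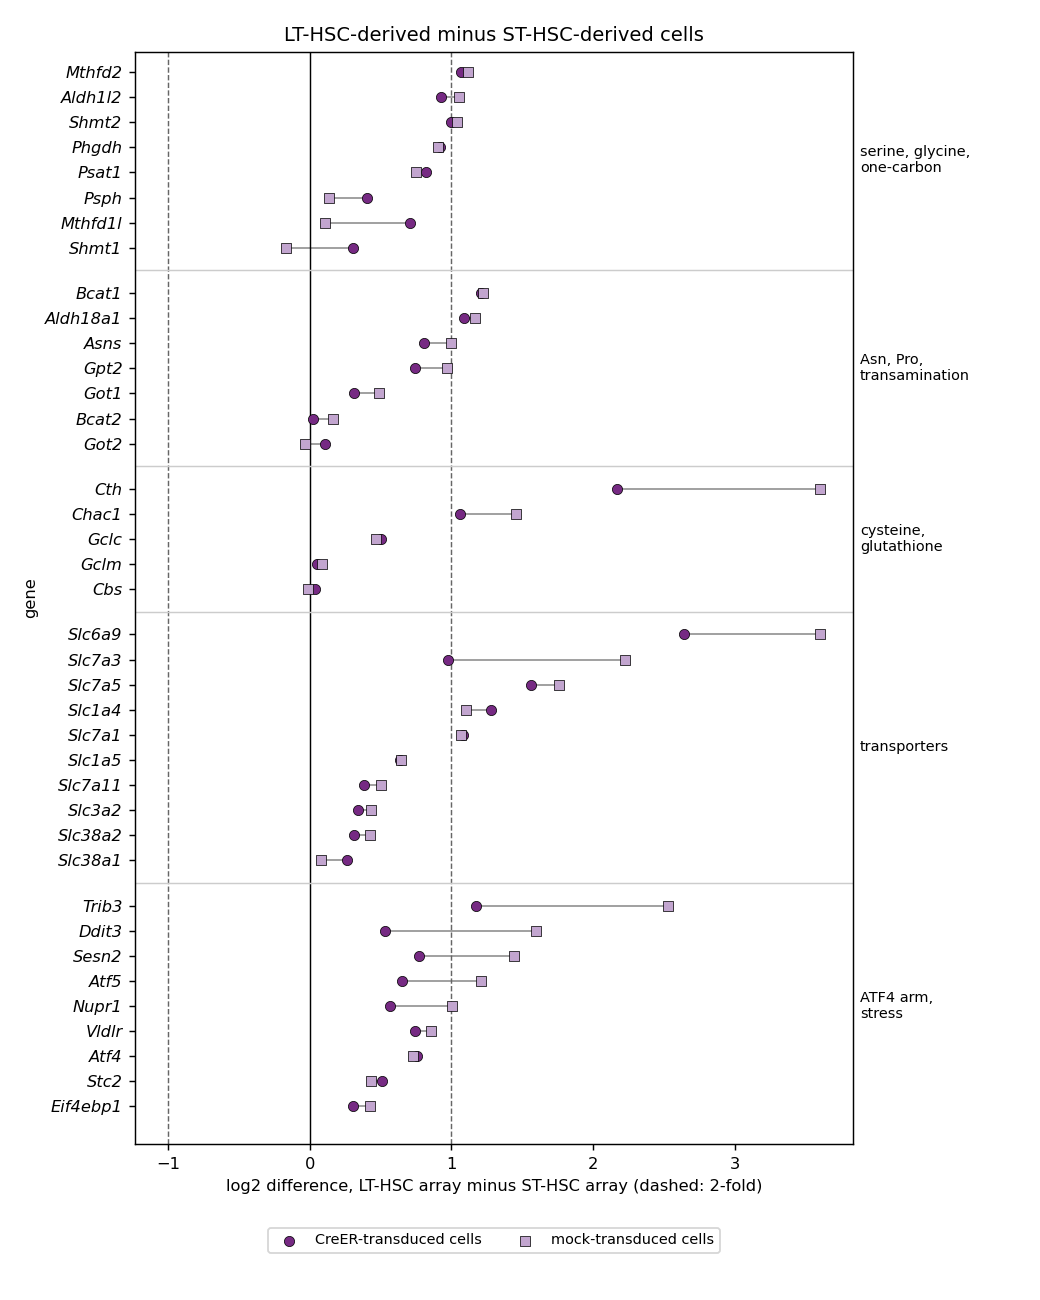
Log2 difference between the LT-HSC and ST-HSC arrays (x axis) for each of the 39 genes (y axis, grouped by role), with a circle for the CreER pair, a square for the mock pair and dashed lines at 2-fold. Cth and Slc6a9 lie furthest to the right, and all circles lie above 0.

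Median differences between CreER and mock were smaller than those between the populations. In LT-HSC colonies 32 of the 39 members (82.1%) were lower with CreER, against 55.3% of genes past the floor, with a median of -0.18, against 0.04 over all genes and -0.03 over genes past the floor. In ST-HSC colonies 28 (71.8%) were lower, against 57.1% of genes past the floor, with a median of -0.09, against -0.01 over all genes and -0.02 over genes past the floor. In LT-HSC colonies 2 members, Trib3 (-1.08) and Slc7a3 (-1.06), were at least 2-fold lower with CreER, against 0.767% of genes, and 0 were at least 2-fold higher, against 0.108%. In ST-HSC colonies no member was 2-fold apart, against 0.438% of genes higher and 0.0796% lower. All 9 genes of the ATF4 arm were lower with CreER in LT-HSC colonies, with a median of -0.47, and 6 of the 9 were lower in ST-HSC colonies, with a median of -0.04.

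Members divided into 24 that were lower with CreER in both populations, 3 that were higher in both (Shmt1, Phgdh and Cbs), 8 that were lower in LT-HSC colonies and higher in ST-HSC colonies, and 4 the other way. As shares, these were 61.5%, 7.69%, 20.5% and 10.3% of the members, against 35.3%, 22.8%, 20.0% and 21.9% of the genes past the floor. Cth, for example, differed by -0.90 in LT-HSC colonies and by 0.53 in ST-HSC colonies, Slc6a9 by -0.82 and 0.14, and Ddit3 by -0.87 and 0.19. Atf4 was lower by a like amount in both, at -0.13 and -0.16. Slc7a11 was lower in both as well, at -0.41 and -0.29. Both CreER arrays lay below both mock arrays for only Bcat2 and Gclm, against 15.7% of genes past the floor, and above them for Shmt1 and Cbs, against 11.2%. The CreER differences share their arrays with the population differences above, so a high value on LT-HSC mock enters both.

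**Figure D3:**
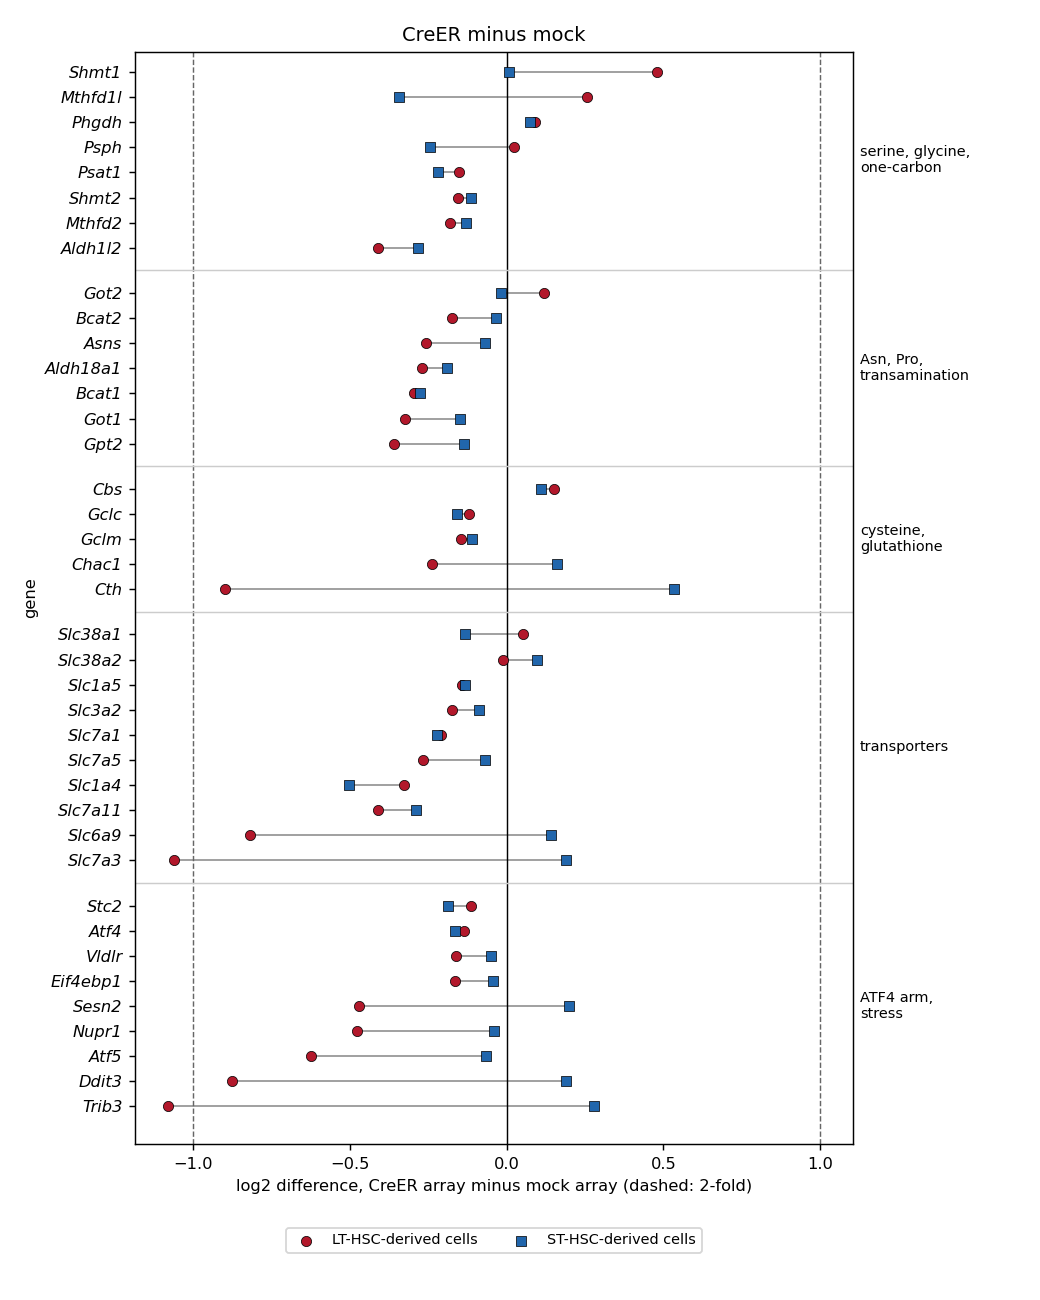
Log2 difference between the CreER and mock arrays (x axis) for each of the 39 genes (y axis, grouped by role), with a circle for LT-HSC colonies and a square for ST-HSC colonies and dashed lines at 2-fold. Trib3 and Slc7a3 pass the line at -1 in LT-HSC colonies, and no square does.

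In limma 0 of the 36 members tested, and 0% of all 10411 genes, passed an adjusted p of 0.05 for CreER against mock. At an unadjusted p under 0.05, 3 members were lower with CreER, against 6.77% of genes, and 0 were higher, against 3.29%. They were Slc1a4 (-0.41 ± 0.10), Slc7a11 (-0.35 ± 0.10) and Bcat1 (-0.29 ± 0.09), with limma adjusted p of 0.338, 0.381 and 0.418. Of 13 monocyte and macrophage markers, 8 were lower on both CreER arrays than on both mock arrays, against 15.7% of genes past the floor. Only 2 of the 39 members were. In LT-HSC colonies 4 of the 13 markers were higher with CreER, and in ST-HSC colonies 2. The log2 summed signal of the markers was 14.52 and 15.00 on LT-HSC and ST-HSC CreER, against 15.18 and 15.35 on LT-HSC and ST-HSC mock. The mast cell and basophil markers had a median of -0.37 in LT-HSC colonies and 0.36 in ST-HSC colonies. With CreER, all 11 cell cycle markers were higher in LT-HSC colonies (median 0.33), and 7 of 11 in ST-HSC colonies (0.06). Primary granule and myeloid progenitor markers were higher for 6 of 6 (0.56) and 3 of 6 (-0.02). Neutrophil markers were higher for 8 of 11 (0.17) and 11 of 11 (0.30). Of the 10411 genes past the floor, 4652 were higher in LT-HSC colonies and 4460 in ST-HSC colonies. The part of these cell types or of the cell cycle in the CreER differences was not tested.

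Other genes of the pathway and its neighbours were tested in the same fit, in which 3.78% of all genes were called higher and 2.49% lower. Of 17 cytosolic aminoacyl-tRNA synthetases, which charge tRNAs with amino acids, 7 were higher in LT-HSC colonies in limma and 0 were lower, with a median difference of 0.49 with CreER and 0.46 with mock. Among them Yars differed by 0.88 ± 0.09 (limma adjusted p = 0.0127), Eprs by 0.82 ± 0.10 (limma adjusted p = 0.0173) and Tars by 0.82 ± 0.10 (limma adjusted p = 0.0182). Of 11 genes for eIF2alpha kinases, phosphatase subunits and the eIF2B exchange factor, only Ppp1r15a passed, at 1.03 ± 0.10 (limma adjusted p = 0.0114). It encodes the stress-induced phosphatase subunit of eIF2alpha, and its constitutive counterpart Ppp1r15b differed by 0.02 ± 0.09. Transcripts of the kinases Eif2ak3 (-0.17 ± 0.09) and Eif2ak4 (-0.24 ± 0.12) had limma adjusted p of 0.308 and 0.282.

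Of 14 other ATF4 partners and targets tested, 3 were higher: the growth arrest gene Gadd45a (2.07 ± 0.17, limma adjusted p = 0.00761), the mitochondrial enzyme gene Pck2 (0.81 ± 0.09, limma adjusted p = 0.0154) and Herpud1 (0.55 ± 0.09, limma adjusted p = 0.0369). Of 18 endoplasmic reticulum chaperone and XBP1 or ATF6 genes, 2 were higher, Pdia4 (0.61 ± 0.11) and Ern1 (0.49 ± 0.09), with limma adjusted p of 0.0431 and 0.0485; the chaperone gene Hspa5 differed by 0.44 ± 0.11 and did not pass (limma adjusted p = 0.077). Of 17 other amino acid transporters tested, 2 were higher, Slc7a2 (1.37 ± 0.26) and Slc7a8 (0.93 ± 0.12), and 1 was lower, Slc15a4 (-0.51 ± 0.09), with limma adjusted p of 0.0461, 0.0208 and 0.0437. Slc7a2, another carrier of cationic amino acids, also differed by -1.29 between CreER and mock in LT-HSC colonies. Only Prodh, which breaks proline down, was higher among 14 other folate, glycine, proline and methionine cycle enzymes (0.75 ± 0.10, limma adjusted p = 0.0196). Over all genes tested, 3.78% were called higher and 2.49% lower, and counts of 1 or 2 in lists this short are too few to set apart from these shares. None of 14 NRF2 targets passed in limma in either direction. At an unadjusted limma p under 0.05, 1 of the 14 was higher (Me1) and 2 were lower (Hmox1 and Prdx1), against 11.6% of all genes higher and 14.1% lower.

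**Figure D4:**
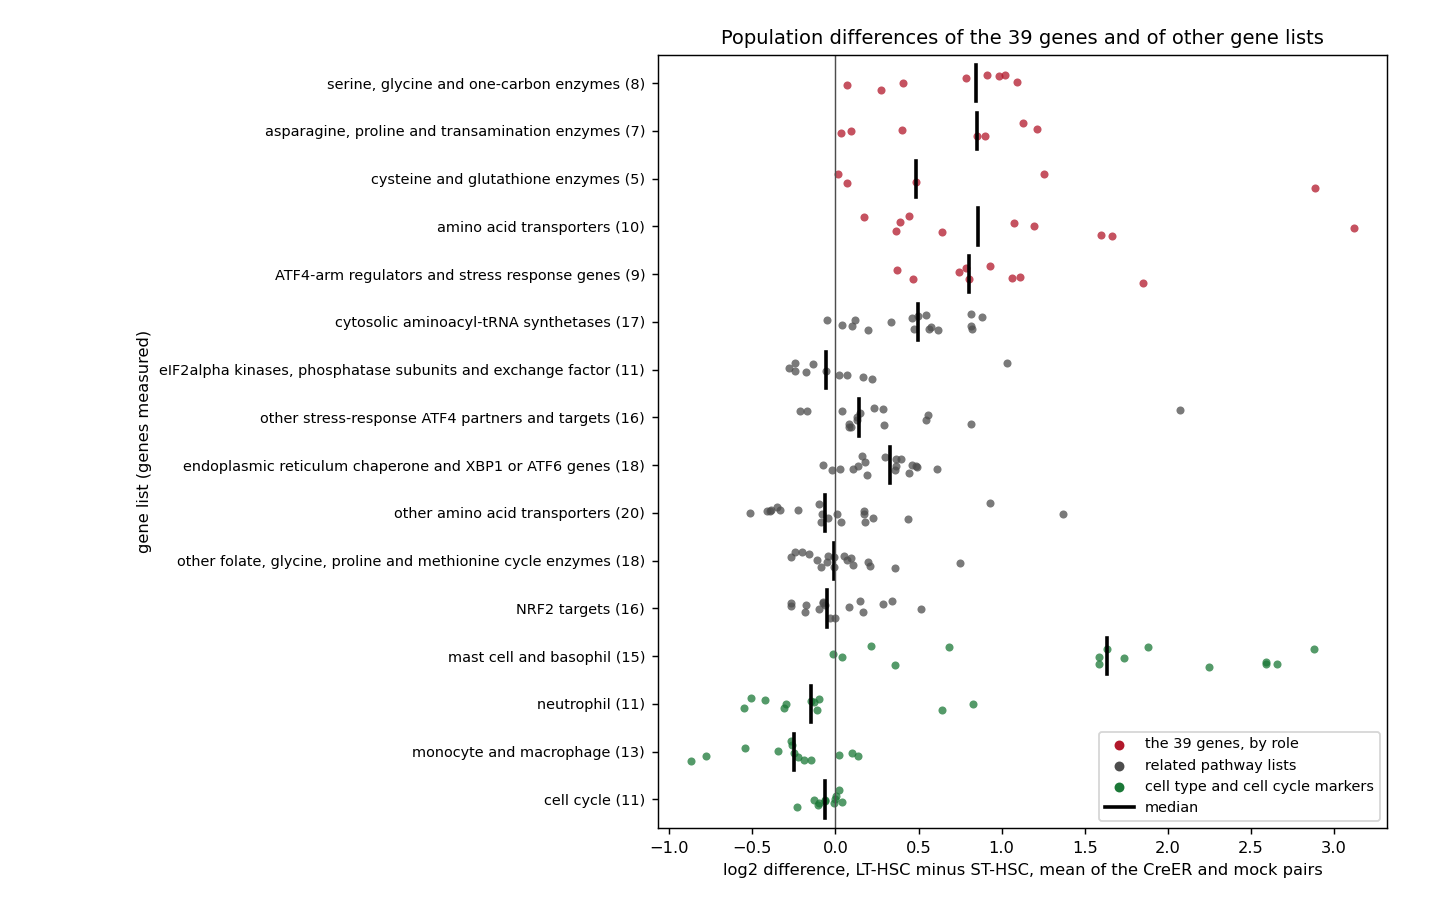
Log2 difference between LT-HSC colonies and ST-HSC colonies, as the mean of the CreER and mock pairs (x axis), for the genes of each list (y axis, number measured in brackets), with black bars at the medians. The 5 role groups (red) and the tRNA synthetases have medians of about 0.5 or more, most other related lists (grey) lie near 0, and the mast cell and basophil markers (green) lie highest.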

How the data were processed

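Per the submitters' processing notes, the authors processed the arrays with Affymetrix Expression Console; how values were summarised and normalized, and the version, are not stated in the sources used here. The deposited values were read as log2 expression per probe set from their range (2.21 to 14.82), and were used as deposited because the 4 array medians were nearly equal (7.75 to 7.82). Such summaries compress differences near background. Array number (1 per group, 4 in all) limits the precision of every value.

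Of 35556 probe sets, GEO's platform annotation paired 21789 with 1 symbol, 1621 with several and 12146 with none here. Only the first kind was named; of several for a gene, the one highest on average was taken. All 39 measured members were found by gene number in RefSeq (GRCm38.p6), with 0 symbols changed. Promoter sequences are from RefSeq; coordinates are GRCm38.p6.

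Pairwise differences carry no test; the size rule was an absolute log2 difference of at least 1 with the higher array above its median. The additive model was fitted with limma 3.58.1 in R 4.3.3 (lmFit, eBayes; 4.27 prior degrees of freedom). The steps were tested on simulated data.

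The members and lists were chosen with earlier results of these data known. Named with all 4 levels were members meeting the size rule in any pair, and Atf4, Asns, Ddit3 and Slc7a11; Aldh1l2, Shmt1 and Slc3a2 were added after their values were seen. Related lists gave up to 4 examples each with the largest differences; others named (Ppp1r15b, Eif2ak3, Eif2ak4, Hspa5, Me1, Hmox1, Prdx1 and the cell type markers) were chosen after their values were seen. Alternatives were quantile, cyclic loess and median-centred normalization, no floor or one at the 75th percentile, 1.5-fold and 3-fold thresholds, the mean of all probe sets, a trend in the prior and an adjusted p of 0.1.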

Additional observations from a re-analysis of the deposited data

Results flagged for a closer look

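The CreER difference ran in opposite directions in the populations, by at least 2-fold in all, for 4 members: it was lower in LT-HSC colonies and higher in ST-HSC colonies. The LT-HSC value minus the ST-HSC value was -1.43 for Cth, -1.36 for Trib3, -1.25 for Slc7a3 and -1.06 for Ddit3 on the log2 scale. The direction alone held for 20.5% of members and 20.0% of genes past the floor, and the share of all genes that also met the 2-fold size was not counted. The pattern is not particular to members: it was larger for the markers Retnlg (-2.35) and Fcer1a (-2.32), and F13a1 showed the reverse (1.61). Each value uses all 4 arrays, 1 per group, so the difference between the populations was not tested, and both ST-HSC levels of Cth and Slc7a3 were under the signal floor.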

How the results depend on the processing

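No paired analysis was possible because the labels give no replicate numbers to pair arrays by; the additive model already compares the populations within each transduction. No array could be left out of a pair. The count of members higher in LT-HSC colonies, 22 in limma, was 16 with cyclic loess normalization and 13 with the floor at the 75th percentile, where fewer members were tested. Over all genes the 653 calls became 368 with cyclic loess, 186 with the higher floor and 1401 at an adjusted p of 0.1. Members at least 2-fold apart between LT-HSC and ST-HSC with CreER, 10 in all, numbered 6 with the higher floor, 21 at 1.5-fold and 2 at 3-fold; with mock, 16 became 6 at 3-fold. Between the 2 LT-HSC arrays, 2 became 1 with the higher floor, 6 at 1.5-fold and 0 at 3-fold. The 0 calls for CreER against mock in limma held under every alternative run. Directions of called members did not reverse. Near 0, quantile normalization turned the sign of Slc38a2 and median centring that of Psph between the LT-HSC arrays. Median centring also put Bcat2, Cbs and Gclm below 0 for LT-HSC against ST-HSC with CreER, and cyclic loess turned Cbs in both population pairs.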
